A study of Nematostella vectensis with 47 samples.

Results

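RNA-seq of F1 gastrulae of the sea anemone Nematostella vectensis was used to compare 2 lines of embryos whose parents had lost DNA methylation in different ways. The members of the comparison were the 4 F1 RNA-seq libraries, out of 47 samples in the series, and all genes of the count table. The F1 MO libraries (2) came from parents that had been injected as eggs with translation-blocking morpholinos against DNMT1 and UHRF1. The F1 GSK libraries (2) came from parents that had been exposed as embryos to GSK-3484862, an inhibitor of DNMT1. The F1 embryos themselves received neither agent, carried the genotype label Massachussets and were sampled whole at 25 hpf. Each library stood for another line, and each GSK line descended from a single pair of parents that had been selected for low methylation, so that parental genotype and treatment cannot be told apart. No F1 library of untreated parents was used here. The F0 libraries of the same stage, 3 exposed to 0.1% DMSO and 3 to 5 µM GSK, came from pooled gametes. They were left out of the main F1 test. They served as a reference and, compared with each other, to choose sets of genes. DMSO replicate 3 stood apart from the others, with a Pearson r of 0.940 to 0.968 with the other F0 libraries in log2(CPM + 1), against 0.972 to 0.992 among those.

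In Nematostella, as in many invertebrates, 5-methylcytosine at CpGs is concentrated in the bodies of transcribed genes. DNMT1 copies methylation to the new strand after replication, and UHRF1 brings DNMT1 to hemimethylated sites. A morpholino stops the translation of new protein, whereas GSK-3484862 acts on the protein that the egg already holds. Comparing the F1 lines directly asked whether gene expression in offspring of hypomethylated parents depended on how the parents had been treated. The study reported lower global methylation in the MO-derived than in the GSK-derived F1 embryos. The kind of treatment and the methylation that remained in F1 therefore cannot be told apart.

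The count table held 19231 genes, all of which matched a protein-coding gene of the reference annotation. The genes carry identifiers without product names, so no roles are given for them. Total counts were 23166215 and 20823699 in F1 MO replicates 1 and 2, and 22556659 and 21189677 in F1 GSK replicates 1 and 2. Between 18207 and 18493 genes had at least 1 count in a library. Levels are given as CPM, the count scaled to a library's total, and differences as log2 fold changes of F1 MO over F1 GSK with their standard errors (SE).

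No gene passed the threshold of FDR < 0.01 in the direct comparison. In edgeR's quasi-likelihood F test of 16556 genes, 0 were called higher and 0 lower in F1 MO, and the smallest Benjamini-Hochberg adjusted p was 0.0404. At FDR < 0.05, 4 genes were higher (0.0242% of those tested) and 1 was lower (0.00604%). At an unadjusted p under 0.05, 1652 genes were higher (9.98%) and 1587 were lower (9.59%). DESeq2, which was the tool of the study, called 213 genes higher (1.47% of 14479 genes with an adjusted p) and 315 lower (2.18%) at FDR < 0.01. All 528 of these had an unadjusted p under 0.05 and the same direction in edgeR. The edgeR counts also depended on the F1 GSK libraries, since 88 genes were called higher and 68 lower without F1 GSK replicate 1, and 15 and 13 without replicate 2. In whole embryos, a smaller number of cells of a type and less RNA per cell cannot be told apart.

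The bulk of the transcriptome lay close to equality. The median log2 fold change over all tested genes was 0.00, a value near which the scaling between libraries (TMM) places the bulk of genes. A total of 11971 genes (72.3%) lay within 0.5 of 0. Among the genes with an unadjusted p under 0.05, the median was 0.65 for the higher and -0.75 for the lower genes, and 488 and 495 of them differed by at least 1 on the log2 scale. Both F1 MO libraries lay above both F1 GSK libraries for 4088 of all tested genes (24.7%) and below both for 4727 (28.6%).

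**Figure D1:**
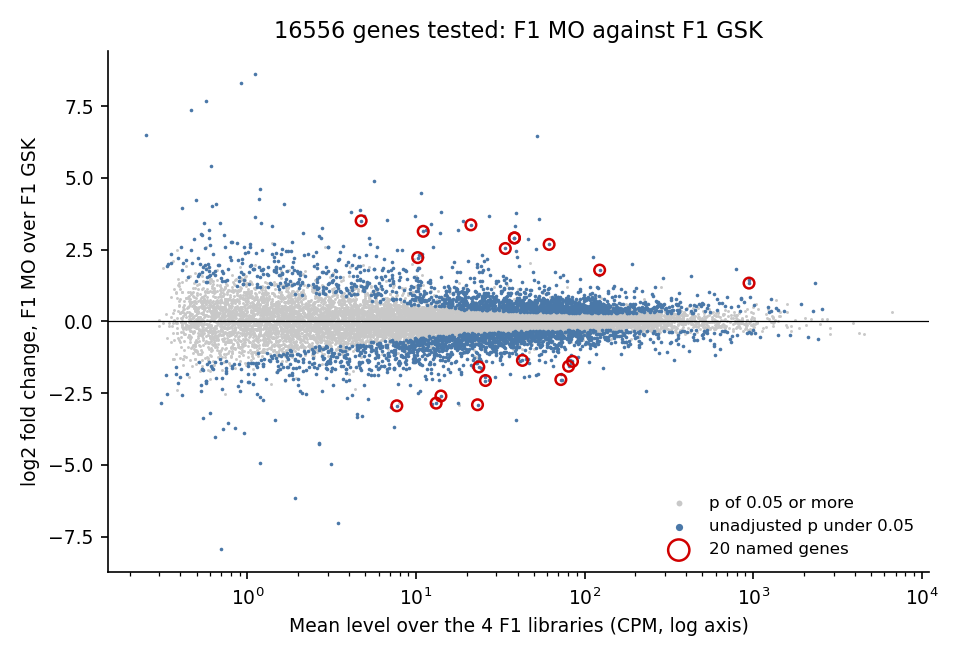
Log2 fold change of F1 MO over F1 GSK (vertical axis) against the mean level over the 4 F1 libraries in CPM (horizontal log axis), 1 point per tested gene. Blue points have an unadjusted p under 0.05 (1652 higher, 1587 lower), red circles are the 20 named genes, and no gene passed FDR < 0.01.

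Lines of the same treatment differed in fewer genes than lines of different treatments. The closest cross-treatment pair was near the spread within F1 GSK. Of 15331 genes with a mean of at least 1 CPM, 408 (2.66%) differed by at least 1 in log2(CPM + 1) between the F1 MO libraries and 586 (3.82%) between the F1 GSK libraries. Between treatments, the number was 595 (3.88%) for MO replicate 1 against GSK replicate 1, 1048 for MO replicate 1 against GSK replicate 2, 1285 for MO replicate 2 against GSK replicate 1 and 1248 (8.14%) for MO replicate 2 against GSK replicate 2. MO replicate 1 was thus about as far from GSK replicate 1 as the GSK lines were from each other, and the remaining cross-treatment pairs differed in more genes than either pair within a treatment. The Pearson r of the log2 profiles, a description over genes, was 0.979 between the MO libraries, 0.968 between the GSK libraries and 0.948 to 0.968 between treatments.

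**Figure D2:**
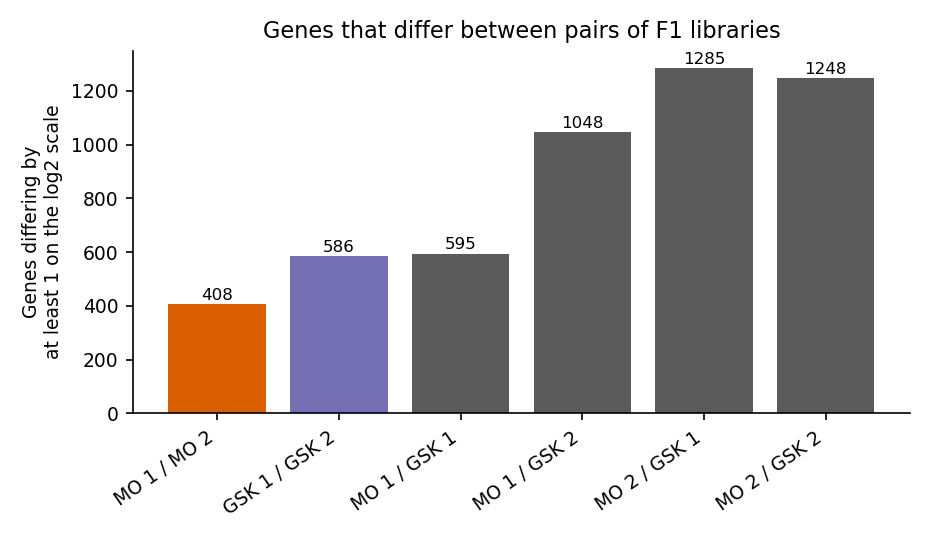
Number of genes (vertical axis) that differed by at least 1 in log2(CPM + 1) between each pair of F1 RNA-seq libraries, among 15331 genes with a mean of at least 1 CPM. The pairs within a treatment gave 408 (MO, orange) and 586 (GSK, purple), and the cross-treatment pairs (grey) 595 to 1285.

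Because no gene passed the threshold, the 20 named genes are those with the smallest unadjusted p in each direction, with both libraries of one treatment above both of the other, and their values are given without a call. DESeq2 called all 20 at FDR < 0.01, as did edgeR without F1 GSK replicate 1, which leaves that treatment with a single library. The 10 named genes higher in F1 MO had log2 fold changes of 1.34 to 3.51 and adjusted p values of 0.0404 to 0.0596 in edgeR. LOC5522046 (chromosome 4, 15445811 to 15448409, build GCF_932526225.1) stood at 98.8 and 114 CPM in F1 MO and at 18.0 and 15.8 CPM in F1 GSK, a log2 fold change of 2.68 (SE 0.16, edgeR adjusted p = 0.0404). Its levels in the F0 DMSO libraries, 42.3, 53.6 and 90.8 CPM, lay between those of the F1 lines. The difference therefore had a side above and a side below the F0 reference.

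LOC125561308 (chromosome 3, 12790130 to 12795392) had 186 and 193 CPM in F1 MO against 52.8 and 59.7 CPM in F1 GSK, a log2 fold change of 1.79 (SE 0.12, edgeR adjusted p = 0.0404). Its F1 GSK levels were close to the F0 DMSO levels of 82.0, 49.5 and 63.5 CPM, and the F1 MO levels exceeded all of them. In the F0 GSK embryos this gene varied widely, with 93.3, 762 and 463 CPM. LOC116612202 on chromosome 1 and LOC5504516 on chromosome 12 had the same count in every library, so that their reads cannot be told apart and they stand for 1 measurement. Both had 58.2 and 76.8 CPM in F1 MO against 10.2 and 8.16 CPM in F1 GSK (log2 fold change 2.91, SE 0.22, edgeR adjusted p = 0.0404). Over the whole table, 29 sets with 89 genes shared identical counts in all libraries.

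The most abundant named gene was LOC5514531 (chromosome 12, 10184706 to 10187821), with 1430 and 1255 CPM in F1 MO against 529 and 565 CPM in F1 GSK. Its log2 fold change was 1.34 (SE 0.14, edgeR adjusted p = 0.0596), and the F0 DMSO libraries ranged from 538 to 869 CPM. The largest log2 fold change in the list, 3.51 (SE 0.36), belonged to LOC5505263 (chromosome 11, 6819322 to 6830810), which had 9.28 and 8.07 CPM in F1 MO and under 1 CPM in both F1 GSK libraries. For all 10 genes the F1 MO mean lay above the range of the F0 DMSO libraries. For 4 of them the F1 GSK mean lay inside that range and for 6 outside it.

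**Figure D3:**
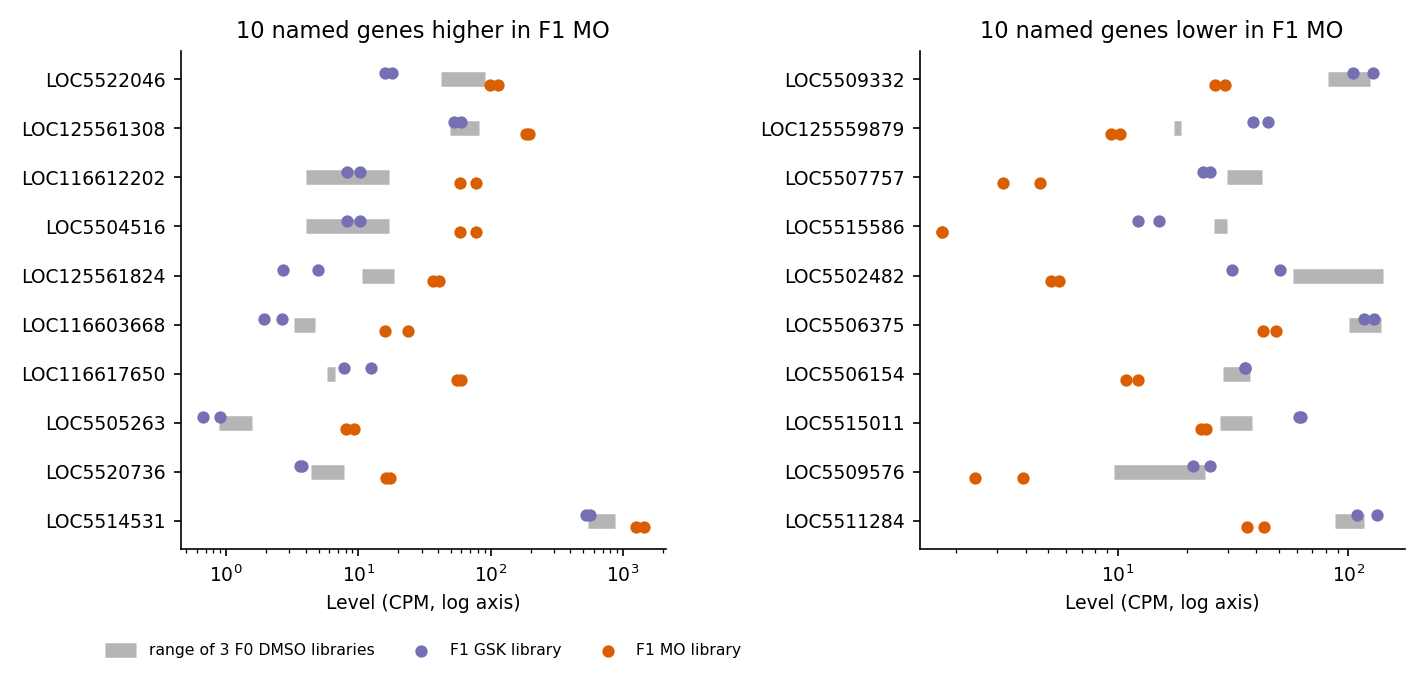
Level in CPM (horizontal log axis) of the 20 named genes in the F1 MO libraries (orange points) and the F1 GSK libraries (purple points), with the range of the 3 F0 DMSO libraries as a grey bar. The groups do not overlap for any gene because the choice of genes required it, and the F1 MO points lie outside the grey bar for each gene.

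The 10 named genes lower in F1 MO had log2 fold changes of -2.94 to -1.36, with adjusted p values over the same range of 0.0404 to 0.0596. LOC5509332 (chromosome 4, 5962638 to 6006853) had 29.2 and 26.5 CPM in F1 MO against 105 and 129 CPM in F1 GSK, a log2 fold change of -2.03 (SE 0.16, edgeR adjusted p = 0.0404). The F0 DMSO libraries, at 124, 105 and 81.5 CPM, and the F0 GSK libraries, at 89.9, 87.0 and 119 CPM, lay near the F1 GSK level. The F1 MO lines thus had the lowest levels of the gene among all 10 libraries of the assay.

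LOC5515586 (chromosome 2, 2885994 to 2902841) had the largest decrease of the list, with 1.73 CPM in each F1 MO library against 12.3 and 15.1 CPM in F1 GSK (log2 fold change -2.94, SE 0.28, edgeR adjusted p = 0.0596). The F1 GSK levels were close to those of F0 GSK embryos (12.9, 12.3 and 10.9 CPM), whereas the F0 DMSO libraries had 26.3, 30.0 and 28.4 CPM. LOC5507757 (chromosome 3, 2959016 to 2971813) had 3.19 and 4.61 CPM in F1 MO, 23.4 and 25.1 CPM in F1 GSK, 10.9 to 13.9 CPM in F0 GSK and 29.8 to 42.2 CPM in F0 DMSO. For both genes F1 MO was therefore the lowest group. These were also the only named genes called in F0 GSK against F0 DMSO at FDR < 0.01 (adjusted p = 0.00489 and 0.00459 in edgeR).

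LOC5502482 (chromosome 4, 5413414 to 5423880) had 5.14 and 5.57 CPM in F1 MO against 50.6 and 31.4 CPM in F1 GSK. LOC5509576 (chromosome 12, 8010156 to 8014440) had 2.42 and 3.89 CPM against 25.2 and 21.2 CPM. Both genes have methylated bodies in gastrulae of an untreated cross, with 82.9% and 62.6% mCG. LOC125561824, a gene higher in F1 MO, had no CpG with enough valid calls and so no level. Over all tested genes with a level, 54.4% had at least 10% mCG in the gene body. In the whole list, this was seen for 5 of the 10 genes lower in F1 MO. Among the 10 higher genes it was seen for 1, LOC5522046 with 23.7%. The list was drawn by p, so that this split is a description of the named genes only.

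Some genes were close to silent in one treatment. Counting genes with a log2 difference of at least 4, an unadjusted p under 0.05 and at least 5 CPM in the higher treatment, a set chosen after the values were seen, 3 were higher and 4 lower in F1 MO, with adjusted p values of 0.0645 to 0.214 in edgeR. LOC116603928 (chromosome 12, 11216284 to 11218575) had 50.7 and 157 CPM in F1 MO against 2.08 and 0.24 CPM in F1 GSK, and the F0 libraries ranged from 1.42 to 6.01 CPM. Its gene body had 96.0% mCG in the untreated cross. LOC125568097 (chromosome 1, 14827283 to 14828933) had 0 and 2 counts in the F1 MO libraries against 189 and 112 counts, or 8.38 and 5.29 CPM, in F1 GSK. It was the only gene with at most 3 counts in both libraries of a treatment and at least 5 CPM in both of the other, and all 6 F0 libraries had 5.22 to 12.7 CPM.

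A few genes had 0 counts in only one line of a treatment. A total of 13 genes had 0 counts in one library of a treatment and at least 5 CPM in the other, 8 of them at 0 in F1 GSK replicate 1, 3 in F1 GSK replicate 2 and 1 in each F1 MO library. LOC125561310 (chromosome 3, 12801691 to 12803623) had 0 counts in F1 GSK replicate 1 and 18.8 CPM in replicate 2, with 6.09 and 5.23 CPM in F1 MO. LOC125573493 (chromosome 11) had 0 counts in F1 MO replicate 1 and 14.7 CPM in replicate 2. LOC116615625 (chromosome 7, 10728512 to 10730524) had 0 counts in all 6 F0 libraries and in F1 GSK replicate 2, but 10.5 CPM in F1 GSK replicate 1 and 1.04 and 18.7 CPM in F1 MO. The other genes at 0, in the order of their level in the sister library, include LOC125556745, LOC5512589, LOC125556732, LOC116614937, LOC116601894, LOC5514756 and LOC125561091, with 12.2 down to 6.13 CPM. Such values were not particular to F1, since LOC116606566, at 0 counts in F1 GSK replicate 2, had 105, 0 and 113 counts in the F0 DMSO libraries. The assignment of reads between similar genes was not tested.

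Which treatment had moved away from the F0 reference was asked for the genes with an unadjusted p under 0.05. Among the 1652 higher genes, the F1 MO mean alone lay outside the range of the F0 DMSO libraries for 762 (46.1%), and the F1 GSK mean alone for 144 (8.72%). Among the 1587 lower genes, the numbers were 564 (35.5%) and 211 (13.3%). Among the 13317 remaining genes, they were 2878 (21.6%) and 1707 (12.8%). Both means lay outside the range for 688 of the higher genes (41.6%), 749 of the lower genes (47.2%) and 5522 of the remaining genes (41.5%). With the range of DMSO replicates 1 and 2 only, the higher genes gave 495 against 67 and the lower genes 322 against 59. The remaining genes gave 2235 (16.8%) against 1396 (10.5%). Both means then lay outside for 1085 of the higher genes (65.7%), 1206 of the lower genes (76.0%) and 8625 of the remaining genes (64.8%). Where only one mean lay outside the range it was more often that of F1 MO, in the remaining genes as well. Generation and parentage differ between the F0 and F1 libraries, and their part in these counts was not tested.

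The difference between the F1 lines ran in the same direction as the difference between F0 GSK and F0 DMSO embryos. In F0 GSK against F0 DMSO, which share no library with the F1 comparison, edgeR called 165 genes lower (0.991% of 16654 tested) and 40 higher (0.24%) at FDR < 0.01. The F0 crosses were split between DMSO and GSK, so that the groups share parents. Same-numbered libraries did not deviate together (r of -0.40, -0.11 and -0.32), whereas differently numbered ones gave -0.02 to 0.32. The highest values were 0.32 for DMSO replicate 1 with GSK replicate 3 and 0.31 for DMSO replicate 3 with GSK replicate 1. Whether the replicate numbers mark the shared cross was not tested, so a block on them may not follow the crosses. With the replicate number as a block, 2 of the 165 genes were called lower (0.012% of those tested) and 0 higher, while all 165 and all 40 had an unadjusted p under 0.05 in the same direction. Of the lower genes, 164 were tested in F1, and 161 of these had methylated bodies. Their median log2 fold change of F1 MO over F1 GSK was -0.70 (quartiles -1.13 and -0.25), against 0.00 over all tested genes. The fold change was below 0 for 143 (87.2%) and above 0 for 21. At an unadjusted p under 0.05, 91 were lower (55.5%, against 9.59% of all tested genes) and 2 were higher (1.22%, against 9.98%). Both F1 MO libraries lay below both F1 GSK libraries for 124 (75.6%, against 28.6% of all tested genes). None passed FDR < 0.01 or FDR < 0.05 in edgeR, whereas DESeq2 in both comparisons called 82 of 660 such genes lower and 1 higher in F1 MO.

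In the F1 MO libraries these genes were nearly as low as in the embryos exposed to GSK. Relative to the F0 DMSO mean, the median difference in log2(CPM + 1) was -1.23, -1.33 and -1.28 in the F0 GSK libraries, which together with F0 DMSO chose the genes. It was -1.11 and -1.20 in the F1 MO libraries, and -0.39 and -0.47 in the F1 GSK libraries. The medians of the F1 GSK lines thus lay less than midway from the reference to the F1 MO lines. The order F0 DMSO above F1 GSK above F1 MO held for 135 of the 164 genes. The F1 MO mean was below the F0 GSK mean for 64 genes, and the F1 GSK mean for 4. DMSO replicate 3 had a median of -0.02 for these genes, close to the other DMSO libraries. Without it, 349 genes were called lower in F0 GSK and tested in F1, and their median F1 difference was -0.47.

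**Figure D4:**
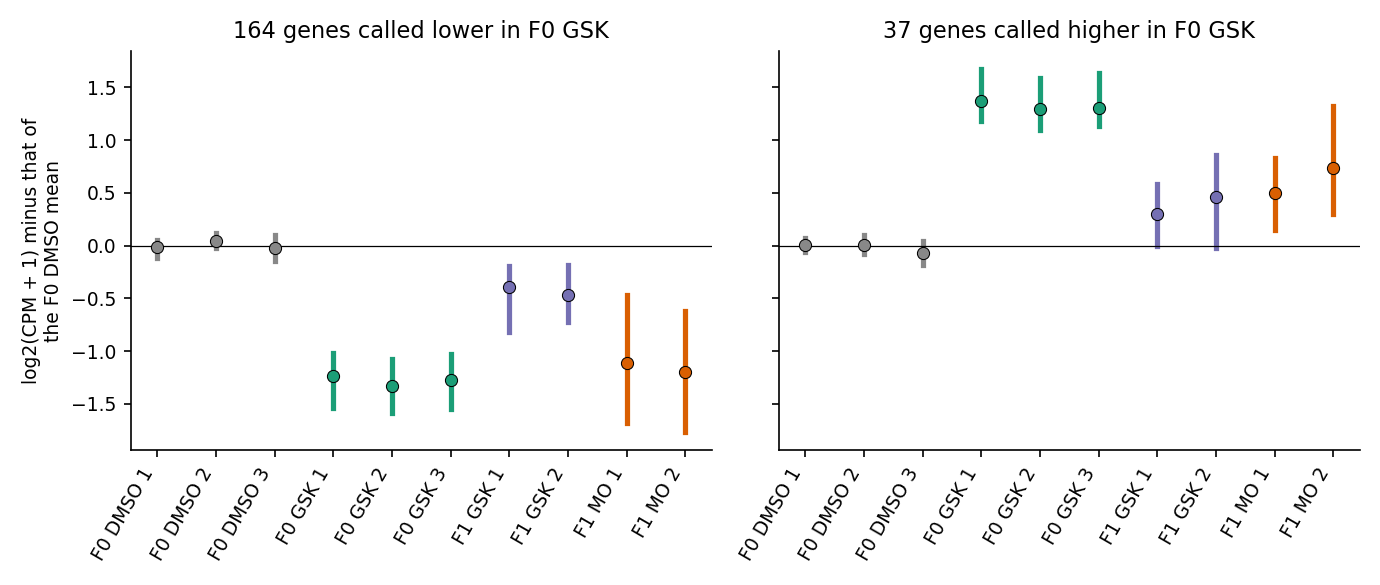
Level of the genes called lower (left, 164 genes) and higher (right, 37 genes) in F0 GSK, in each RNA-seq library, as log2(CPM + 1) minus that of the F0 DMSO mean. Points are medians over genes and bars the quartiles; the F0 libraries chose the genes, and on the left the F1 MO medians (-1.11 and -1.20) lie below the F1 GSK medians (-0.39 and -0.47).

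LOC5509388 (chromosome 3, 18048384 to 18056932; 74.1% mCG in the untreated cross) had 208, 242 and 237 CPM in F0 DMSO and 21.5, 24.7 and 19.8 CPM in F0 GSK. In F1 it had 43.9 and 99.9 CPM in the GSK lines and 7.04 and 5.91 CPM in the MO lines, a log2 fold change of -3.42 (SE 0.41, edgeR adjusted p = 0.0691). The MO lines were below the exposed F0 embryos, and the GSK lines were between the exposed and the control embryos. LOC5513932 (chromosome 4, 16439487 to 16443839; 69.6% mCG) gave a log2 fold change of -3.68 (SE 0.47), with 0.99 and 1.10 CPM in F1 MO, 18.7 and 8.87 CPM in F1 GSK and 23.4 to 42.8 CPM in F0 DMSO. LOC5518808 (chromosome 14) shows a different pattern, since it had 0.93 CPM in F1 GSK replicate 1 and 26.9 CPM in replicate 2, with 1.86 and 1.87 CPM in F1 MO. In this gene the replicate GSK lines differed by more than the treatments. The members with the largest difference in the opposite direction were LOC5518247 (chromosome 1; log2 fold change 0.72, SE 0.19), LOC5505345 (chromosome 8; 0.61, SE 0.33) and LOC5514755 (chromosome 11; 0.59, SE 0.15).

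The genes raised by GSK in F0 differed less clearly between the F1 lines. Of these 40 genes, 37 were tested in F1 and 9 had methylated bodies. Their median log2 fold change was 0.26 (quartiles -0.14 and 1.11), with 27 above 0 and 10 below 0. With an unadjusted p under 0.05, 8 were higher (21.6%, against 9.98% of all tested genes) and 2 were lower (5.41%, against 9.59%) in F1 MO. The median ran from 0.15 without F1 MO replicate 2 to 0.55 without F1 GSK replicate 2, and was 0.37 over the 115 genes called without F0 DMSO replicate 3. Relative to the F0 DMSO mean, their median was 0.50 and 0.73 in the F1 MO libraries and 0.30 and 0.46 in the F1 GSK libraries, against 1.30 to 1.38 in F0 GSK. LOC5520987 (chromosome 6, 13496090 to 13525654) had 12.7 and 39.9 CPM in F1 MO against 2.39 and 1.42 CPM in F1 GSK, with 2.77 to 4.33 CPM in F0 DMSO and 9.23 to 11.5 CPM in F0 GSK. LOC5513175 (chromosome 2, 21395960 to 21496344) went the other way, with 5.70 and 6.87 CPM in F1 MO against 13.5 and 18.9 CPM in F1 GSK.

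The relation extended beyond the called genes. Across 16306 genes tested in both comparisons, the log2 fold change of F1 MO over F1 GSK had a Pearson r of 0.36 with that of F0 GSK over F0 DMSO, and 0.45 among the 8849 with methylated and 0.31 among the 7258 with unmethylated bodies. These r values are descriptions across genes, which are not independent. Of 1574 genes lower in F1 MO at an unadjusted p under 0.05, 1200 (76.2%) had a negative F0 fold change, against 50.6% of all genes, and of 1625 higher genes 1294 (79.6%) had a positive one, against 49.4%. Among methylated genes, the median F1 difference was -1.26 where GSK had lowered the gene by more than 2 on the log2 scale in F0 (31 genes), -0.51 where it had lowered it by 1 to 2 (319 genes), 0.04 where it had changed it by less than 0.25 (4888 genes), 0.41 where it had raised it by 0.5 to 1 (388 genes) and 0.14 where it had raised it by 1 to 2 (41 genes). The 3 methylated genes raised by more than 2 had a median of -0.16. Among unmethylated genes, the median was -0.42 at an F0 decrease of 1 to 2 (106 genes), -0.06 at less than 0.25 (3225 genes) and 0.83 at an increase above 2 (26 genes).

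**Figure D5:**
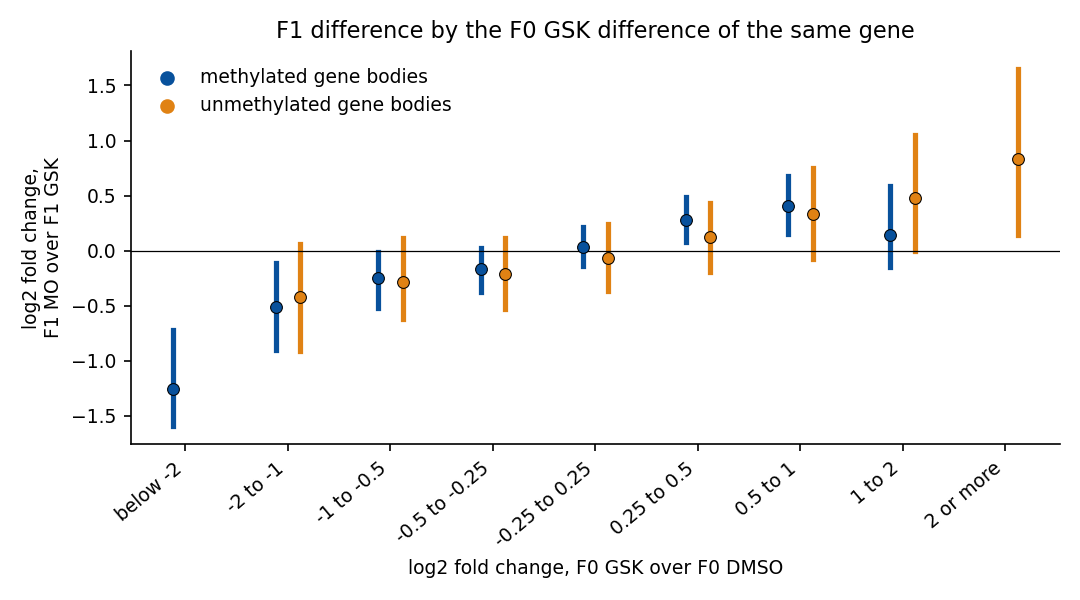
Log2 fold change of F1 MO over F1 GSK (vertical axis) of genes binned by their log2 fold change of F0 GSK over F0 DMSO (horizontal axis), for methylated (blue) and unmethylated (orange) gene bodies. Points are medians and bars quartiles over genes, bins of fewer than 20 genes are not drawn, and the median of methylated genes goes from -1.26 in the lowest bin to 0.41 at 0.5 to 1 and is 0.14 at 1 to 2.

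Methylation of the gene body alone did not separate the F1 lines in direction. Gene body methylation was taken from gastrulae of an untreated cross, with 33.5 valid calls per CpG on average and 12.3% mCG genome-wide. Bodies with at least 10% mCG were called methylated. The median log2 fold change was 0.01 for 8888 methylated and -0.01 for 7448 unmethylated genes. At an unadjusted p under 0.05, 921 methylated genes were higher (10.4%) and 869 lower (9.78%), against 715 (9.60%) and 694 (9.32%) of the unmethylated genes. The share of methylated genes was 56.3% among the higher, 55.6% among the lower and 54.0% among the other genes.

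The size of the differences did vary with methylation. Among the methylated genes, 81.2% lay within 0.5 of 0 on the log2 scale, and among the unmethylated genes 62.6%. The shares with an unadjusted p under 0.05 were nevertheless close, as given above. The part of expression level and of the spread between lines of a treatment in these sizes was not tested. Differences of at least 1 with an unadjusted p under 0.05 were found in 94 methylated genes in the higher direction (1.06%) and 193 in the lower direction (2.17%). In the unmethylated genes, the numbers were 381 (5.12%) and 285 (3.83%). Large differences toward lower levels in F1 MO thus outnumbered those toward higher levels among methylated genes, and the reverse was seen among unmethylated genes. Without F1 GSK replicate 1 the methylated genes gave 241 in each direction, and without F1 MO replicate 2 the unmethylated genes gave 172 higher and 258 lower. Over bins of gene body methylation, the median ran from -0.03 to 0.02. In the bin of 60% to 80% mCG, 8.54% of 1639 genes were higher and 11.8% lower, and in the bin of 20% to 40% mCG 11.8% of 2911 genes were higher and 9.48% lower.

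Genes of both directions lay on all 15 chromosomes. The share of genes lower in F1 MO at an unadjusted p under 0.05 ran from 5.64% on chromosome 5 to 12.6% on chromosome 12, and the share of higher genes from 7.47% on chromosome 12 to 12.7% on chromosome 11. The next gene along the chromosome, where it did not overlap, was also higher for 229 of 1467 higher genes (15.6%, against 10.1% of all next genes) and also lower for 179 of 1339 lower genes (13.4%, against 9.61%). The counting was not checked for reads shared by neighbours, whose part in these shares was not tested.

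Chromatin accessibility was measured by ATAC-seq in the same groups, with 2 libraries each. Of 34715 peaks tested, 0 were called at FDR < 0.01 or FDR < 0.05 in either direction with edgeR, the smallest adjusted p being 0.477. In F1 MO, 1000 peaks were higher (2.88%) and 2559 lower (7.37%) at an unadjusted p under 0.05, and DESeq2 called 522 higher and 745 lower at FDR < 0.01. The F1 ATAC-seq libraries differed widely, with an r of 0.544 between the MO libraries, 0.701 between the GSK libraries and 0.550 to 0.644 between treatments. At most 3 counts were found in 9.79% and 10.8% of peaks in the MO libraries, against 0.601% and 2.33% in the GSK libraries. Total counts in peaks were 14046962 and 12525960 in F1 MO and 11366484 and 19253881 in F1 GSK, so that the library with the fewest counts, F1 GSK replicate 1, also had the smallest share of such peaks. The part of these low-count peaks in the peaks lower in F1 MO was not tested.

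Peaks in methylated DNA that had opened in F0 GSK embryos had on average more ATAC-seq signal in F1 MO, without passing the test. These were the peaks with at least 20% mCG in the untreated cross that edgeR called higher in F0 GSK than in F0 DMSO at FDR < 0.01 (of all 36284 peaks, 1.44% were called higher and 0.229% lower). Of the 430 peaks, 426 were tested in F1. Their median log2 fold change of F1 MO over F1 GSK was 0.49, against 0.07 over all tested peaks and -0.02 over all 4112 methylated peaks. Of these peaks, 42 were higher (9.86%) and 12 lower (2.82%) at an unadjusted p under 0.05, against 2.88% and 7.37% of all peaks and 2.68% and 11.6% of the methylated peaks. At most 3 counts were found in 3.26% and 4.19% of the opened peaks in the F1 MO libraries, against 9.79% and 10.8% of all peaks. A comparison with peaks of like coverage was not made. Relative to the F0 DMSO mean, the median of the opened peaks in log2(CPM + 1) was 1.35 and 1.26 in the F1 MO libraries, 1.091 and 1.001 in the F1 GSK libraries and 1.31 to 1.44 in F0 GSK, by which they were chosen.

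Of the 164 genes lowered by GSK in F0, 19 (11.6%) held such a peak within the gene body, against 4.05% of all methylated genes tested. These 19 had a median log2 fold change of F1 MO over F1 GSK of -0.90 in RNA-seq, and the 145 without one -0.64. Over all methylated genes tested, the 360 with such a peak had a median of -0.05, with 49 lower and 38 higher at an unadjusted p under 0.05, and the 8528 without one had a median of 0.01. LOC5515586, described above, had such a site, a peak at chr2:2900744-2901364 with 96.2% mCG in the untreated cross. The peak had 7.77 and 8.12 CPM in F0 DMSO, 23.5 to 25.0 CPM in F0 GSK, 20.2 and 24.5 CPM in F1 GSK and 63.3 and 68.4 CPM in F1 MO (log2 fold change 1.73, SE 0.41, edgeR adjusted p = 0.477). Accessibility of this peak was thus highest and the RNA of the gene lowest in the F1 MO lines. The other peaks at the gene differed in direction. The peak at a control start site (chr2:2897826-2899854) had a log2 fold change of -0.54 (SE 0.55), and the rest had 0.92 to 1.28. The gene was chosen for its RNA difference, and LOC5518247, the member with the largest RNA difference in the opposite direction (log2 fold change 0.72), was also among the 19.

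Accessibility at start site peaks had a positive median in each class of genes. Among peaks overlapping a CAGE-seq start site of control embryos and lying within 500 bp of a gene body, the median ATAC-seq log2 fold change was 0.25 for 1257 peaks of genes higher in F1 MO, 0.10 for 1111 peaks of genes lower in F1 MO and 0.16 for 6706 peaks of the other genes. At an unadjusted p under 0.05, 7.32% of the first set were higher and 0.796% lower, 4.14% of the second set were higher and 2.16% lower, and 5.44% of the third set were higher and 1.37% lower. Peaks were found at 17 of the 20 named genes. Of these 40 peaks, 10 had an unadjusted p under 0.05, against 10.3% of all tested peaks, and none had an adjusted p below 0.477. The direction relative to the RNA was mixed among the 10. In genes lower in F1 MO, a peak of LOC5506375 had a log2 fold change of -4.37 and a peak of LOC5506154 had 1.07. In genes higher in F1 MO, a peak of LOC5514531 had 0.93 and a peak of LOC5520736 had -3.68. Both negative values rested on low levels in F1 MO, 0.854 and 0.878 CPM for LOC5506375 and 0.285 and 0.240 CPM for LOC5520736.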

How the data were processed

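The deposited RNA-seq and ATAC-seq values are unscaled counts per gene and per merged peak. The authors' methods describe Kallisto with rounded estimates and HISAT2 with TElocal for RNA, and the table does not say which was used. For ATAC-seq they used Chromap, MACS3 and featureCounts. The authors' CAGE-seq values are a normalized signal per cluster, of which the positions were used. The deposited Nanopore values are counts of calls per CpG, besides other call columns. Of the per-sample columns, 0 were left unused.

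The 4 F1 libraries were tested alone with edgeR 4.0.16 in R 4.3.3, after TMM and filterByExpr, by the quasi-likelihood F test. DESeq2 1.42.0 was the other tool. Methylation was computed in Python 3.11.15 over CpGs with at least 10 valid calls, in genes with at least 5 and peaks with at least 3 such CpGs. On simulated data for the RNA-seq comparison (16349 genes, 200 changed by 2 on the log2 scale), 77% of the changed genes were recovered at FDR < 0.01, and for ATAC-seq (34161 peaks) 1.5% were. At that threshold, 9 unchanged genes and 0 unchanged peaks were also called. The simulated counts were drawn with the dispersion fitted to each gene or peak, so that these shares need not hold for the measured libraries. Replicates are separate lines, and p-values cover only their spread.

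The named genes were to be the 10 called genes of largest log2 fold change per direction, with both libraries of one treatment above both of the other and at least 1 CPM. Since 0 were called, they were taken in order of unadjusted p. Genes at 0 counts in one library and at least 5 CPM in its sister were named up to 10. Peaks were to be named only where called. Fixed gene lists, markers of cell types and stages, and genes chosen by product name were not used, because the identifiers were not paired with names; cell type makeup was not tested. The members and lists were chosen with earlier results of these data known. EM-seq was not analysed here.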

Additional observations from a re-analysis of the deposited data

How the results depend on the processing

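In RNA-seq, edgeR called 0 genes higher and 0 lower; the counts became 213 and 315 with DESeq2, 22 and 56 with all libraries of the assay in the fit, 4 and 1 at FDR < 0.05, and 1652 and 1587 at an unadjusted p under 0.05. They ran from 0 to 88 and from 0 to 68 with a library left out. In ATAC-seq, the counts were 522 and 745 with DESeq2 and 1000 and 2559 at an unadjusted p under 0.05, and ran from 0 to 3 and from 0 to 6 with a library left out. RLE size factors and no filter left these counts at 0. The unadjusted threshold, the removal of F0 DMSO replicate 3, the replicate block in the F0 comparisons and the refits of the open methylated peaks were chosen after seeing the data. A lone remaining library was assumed to vary like the other treatment. All 20 named genes kept their direction in each of the 9 refits. Their choice all but ensured this, because both libraries of one treatment had to lie above both of the other. With all libraries in the fit 12 were called, and with RLE size factors or no filter 0.

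With DESeq2, 261 methylated and 257 unmethylated genes were called, and with a library left out 0 to 73 and 0 to 78. The median log2 fold change ran from -0.039 to 0.029 for methylated and from -0.077 to 0.061 for unmethylated genes with a library left out. The median of the genes lower in F0 GSK, -0.70, was -0.39 with DESeq2 in both comparisons (660 genes), -0.39 with F0 genes at FDR < 0.05 (526 genes) and -0.47 without F0 DMSO replicate 3, and ran from -0.78 to -0.59 with an F1 library left out. The median of the genes higher in F0 GSK was 0.40 with F0 genes at FDR < 0.05 and ran from 0.15 to 0.55. Of the genes lower in F0 GSK, DESeq2 called 82 lower and 1 higher, an unadjusted p under 0.05 gave 91 and 2, and leaving out a library gave 0 to 11 lower. Of the 287 genes higher in F0 GSK by DESeq2, that tool called 37 higher and 2 lower in F1 MO. Of the 37 genes higher in F0 GSK by edgeR, 8 were higher and 2 lower at an unadjusted p under 0.05. At a mean of at least 5 CPM, 244 genes differed within F1 MO. The median of the open methylated peaks, 0.49, was 0.59 with DESeq2 and 0.56 with RLE size factors, which move the median of all peaks to 0.13 and 0.14, and ran from 0.40 to 0.62 with a library left out.

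In F1, replicate numbers mark no shared parent between treatments, and only 2 pairs exist. The deviations of same-numbered RNA-seq libraries had an r of 0.14 across genes, and those of ATAC-seq libraries 0.02. With a replicate block, 0 genes and 0 peaks were called in either direction, the smallest adjusted p of the named genes was 0.0111, and the median of the open methylated peaks was 0.40. With a replicate block in F0, the genes lower in F0 GSK numbered 2, with a median F1 difference of -2.24, no gene was called higher in F0 GSK, and the median of 402 open methylated peaks was 0.52.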
